A study of Homo sapiens with 24 samples.

Results

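Dispersed copies of the 7SK RNA gene were followed by small RNA sequencing and by ATAC-seq, which counts fragments that a transposase cuts from open chromatin, in HEK293, a long-established line derived from human embryonic kidney. The copies were chosen from the annotation alone: intervals of at most 500 bp that were not typed as long non-coding RNA and whose name begins with 7SK or is RF00100, the Rfam accession of the 7SK family, without the gene RN7SK itself. This gave 56 copies of 175946 annotated features, 49 of them named 7SK and 7 named RF00100. The cells carried the label wild type and overexpressed eGFP (the control, GFP below), LMNA, LMNB1 or LMNB2. LMNA encodes lamins A and C and the other two encode lamins B1 and B2, the filament proteins under the inner nuclear membrane. Each of the 4 groups had 3 replicate libraries in each assay, 24 libraries in all, and the means of overexpression and any time after it are not given in the sources used here. Nothing in the labels says that replicates came from separate cultures, so every p-value below measures only the spread between these libraries.

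7SK is an abundant nuclear RNA that RNA polymerase III (Pol III) makes from a promoter lying upstream of the gene. It holds the kinase P-TEFb in an inactive complex with HEXIM and LARP7 proteins, and by releasing it controls how RNA polymerase II leaves its early pause. Mammalian genomes also hold many partial or full-length copies of the 7SK sequence, most of them classed as pseudogenes that were inserted by retrotransposition and carry no promoter of their own.

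Total small RNA counts over all features were 133 to 195 M (1 M is 1000000 counts) per library, and ATAC windows outside the mitochondrial chromosome held 93.8 to 205 M. By group the latter were 93.8 to 113 M (GFP), 106 to 168 M (LMNA), 154 to 188 M (LMNB1) and 185 to 205 M (LMNB2). Raw ATAC counts below are therefore not on 1 scale between groups. Mitochondrial windows took 44.8% ± 4.2 (SD, n = 3) of ATAC counts (GFP), 41.1% ± 2.6 (LMNA), 33.6% ± 0.7 (LMNB1) and 26.8% ± 3.4 (LMNB2). As a check of the labels, all 8 features over the LMNB2 gene were higher in each LMNB2 library than in any GFP library in both assays. The same held for 3 of 5 small RNA features and 3 of 6 ATAC windows over LMNB1. Over LMNA it held for 1 of 6 ATAC windows, and no small RNA feature there averaged 10 counts. The features are non-coding intervals, so marker genes of the cell line were not checked.

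The 56 copies were spread over 19 chromosomes, with 11 on chromosome 1, 7 on chromosome 5 and 6 each on chromosomes 2 and 3. They were 137 to 414 bp long with a median of 323.5 bp, against 378 bp for RN7SK (chr6:52995596-52995973), in GRCh38 coordinates as deposited, which extend features by 25 bp on each side. No candidate was lost to the length limit. The longest member was RN7SKP181 at 414 bp. In RefSeq (GRCh38.p14), 26 copies lay over a 7SK pseudogene with an RN7SKP symbol, which is used as their name below. The others go by their RNAcentral identifier (URS) or by RF00100 with the chromosome. A RefSeq gene other than a 7SK pseudogene contained or overlapped 37 of the copies, and for 24 of these it was a protein-coding gene. No RefSeq gene of any type lay over 10 copies. Another feature of the same table overlapped 33 copies, on the opposite strand for 11. On chromosome 1, 3 RF00100 intervals shared a single RNAcentral identifier, which stands for 1 sequence, so their reads cannot be assigned to one of them.

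Most copies gave few or no small RNA reads. No read fell on 29 of the 56 in any of the 12 libraries, and 27 had at least 1 read. For a copy without reads, the 3 counts that a count of 0 allows amount to 0.0016 CPM (counts per M) over the 12 libraries together, for counting error alone. Only 9 copies averaged at least 1 read per library, 4 averaged at least 10, and 5 had a read in every library. In shares, 51.8% had no read, and 16.1%, 7.14% and 8.93% met these 3 limits. Of nuclear features of at most 500 bp that are not lncRNA, 40.9% had no read, and 18.4%, 11.2% and 13.6% met them. Of all nuclear features, which are longer, 14.4% had no read, and 50.8%, 16.0% and 31.3% met them. All 56 together received 3948 reads over the 12 libraries. RF00100-chr17 alone took 66.1% of them, it and URS0000712FCB 84.4%, and the 5 leading copies 95.3%.

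In each library the sum over all copies was 240 to 468 reads, which was 1.14% to 2.56% of the reads on RN7SK. RN7SK itself had 12907, 21772 and 14701 reads (GFP), 15788, 18461 and 20977 (LMNA), 23488, 21827 and 25645 (LMNB1) and 19231, 19571 and 19015 (LMNB2). In CPM on TMM-scaled library sizes each lamin group overlapped GFP, and its log2 fold change against GFP was -0.02 ± 0.25 (SE) in LMNA, 0.26 ± 0.25 in LMNB1 and 0.09 ± 0.25 in LMNB2. Per kb of feature, RN7SK averaged 51451 reads, RF00100-chr17 733 and URS0000712FCB 335, so the leading copy stood at 1.42% of the level of the gene. Next came URS00006C9218, which had 49.1 reads per kb, 0.0955% of RN7SK.

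RF00100-chr17 (chr17:35889533-35889829, plus strand, 297 bp) lay over no RefSeq gene. The nearest one, LOC105371745, was 3670 bp away. Its counts were 183, 185 and 172 (GFP), 205, 225 and 214 (LMNA), 184, 205 and 184 (LMNB1) and 316, 281 and 257 (LMNB2). The 3 LMNB2 libraries were the highest of the 12 in counts. The LMNA counts lay above the GFP counts, and LMNB1 overlapped both. In CPM, where LMNA and LMNB1 both overlapped GFP, these were 1.30 ± 0.31 (GFP; SD, n = 3), 1.36 ± 0.17 (LMNA), 1.14 ± 0.10 (LMNB1) and 1.84 ± 0.06 (LMNB2). An lncRNA interval on the minus strand, lnc-RDM1-1, covers the copy and averaged 217.75 reads against 217.58 for the copy, so nearly all its reads were those of the copy. Counting took no account of strand, as tested on the tables, so which strand these reads come from is not known.

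**Figure D1:**
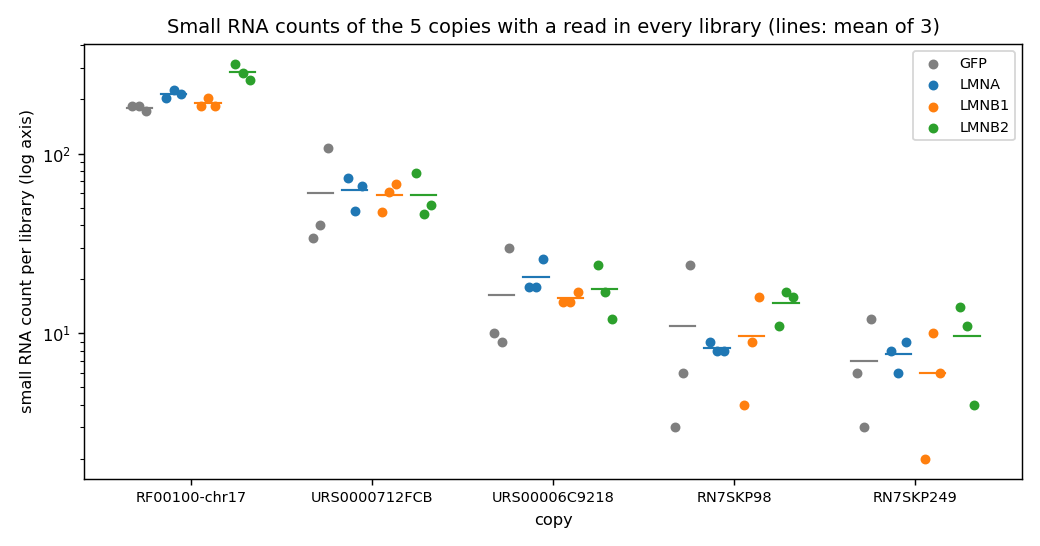
Small RNA counts per library (vertical log axis) of the 5 copies with a read in every library; points are libraries coloured by group, 3 per group, and lines are group means. The LMNB2 points of RF00100-chr17 (257 to 316) lie above all others of that copy, whereas for the other 4 copies each lamin group overlaps GFP and the highest GFP point stands well above the other GFP points.

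URS0000712FCB (chr5:165609938-165610116, plus strand, 179 bp) had 34, 40 and 107 reads (GFP), 73, 48 and 66 (LMNA), 47, 61 and 68 (LMNB1) and 78, 46 and 52 (LMNB2). Its highest and its lowest count were both in GFP libraries, and the groups overlapped. A second 7SK-related copy, RN7SKP60 (chr5:165609416-165609768), lies upstream of it on the same strand and had no read in any library. The longer lncRNA interval AC008415.1, on the same strand, averaged 77.58 reads, of which the copy's 60.0 make up 77.3%.

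URS00006C9218 (chr17:36682177-36682534, plus strand), inside LOC105371750, had 10, 9 and 30 reads (GFP), 18, 18 and 26 (LMNA), 15, 15 and 17 (LMNB1) and 24, 17 and 12 (LMNB2). RN7SKP98 (chr1:212099440-212099726, minus strand), inside DTL, a gene for a substrate receptor of a ubiquitin ligase, had 3, 6 and 24 (GFP), 9, 8 and 8 (LMNA), 4, 9 and 16 (LMNB1) and 11, 17 and 16 (LMNB2). RN7SKP249 (chr8:101137934-101138283, plus strand), inside LINC03090, had 6, 3 and 12 (GFP), 8, 6 and 9 (LMNA), 2, 10 and 6 (LMNB1) and 14, 11 and 4 (LMNB2). In all 3 copies each lamin group overlapped GFP, whose highest count was in replicate 3. Between lamins, LMNA lay above LMNB1 for URS00006C9218 and below LMNB2 for RN7SKP98 without overlap. The share of all features that do the same between lamins was not computed, and these counts are few. No copy was called in either contrast. RN7SKP165, URS00006F7724 and RN7SKP181 averaged 3.75, 2.92 and 1.67 reads per library, and each had at least 1 library at 0.

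GFP replicate 3 stood apart for these RNAs. It had the highest CPM of the 12 libraries for 5 of the 9 copies that averaged at least 1 read, while it was highest for 14.5% of the 28148 features that averaged at least 10 counts. GFP replicates 1 and 2 were highest for 12% and 12.9% of those features. The share among features that averaged at least 1 count, the limit used for the copies, was not computed. RF00100-chr17 was not among those 5 copies: its GFP replicate 3 had 172 reads and 0.969 CPM, both the lowest of the group. This library also had the smallest total of the GFP libraries, 136 M against 185 and 151 M. Its place in CPM therefore depends on the TMM scaling. What sets this library apart was not tested, and results that rest on it are given with and without it below.

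The small RNA comparisons asked whether the copies differed between each lamin and GFP, or among the 4 groups. Of the 56 copies, 5 passed the filter on low counts and were tested in edgeR's quasi-likelihood fit over 33893 features. None was called at a Benjamini-Hochberg adjusted p under 0.05 against GFP in LMNA, LMNB1 or LMNB2 or in the joint test of the 4 groups. The shares of all tested features called were 0.0% for LMNA, 0.0384% for LMNB1, 2.66% for LMNB2 and 1.68% for the joint test. At an unadjusted p under 0.05 the copies numbered 0, 0, 1 and 1 in the same order. DESeq2 called 0 in each, but its own filter left only 1, 4, 4 and 5 of the 5 copies with an adjusted p. With 5 copies tested, counts of 0 at such shares say little about the copies as a group.

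The median log2 fold change of the 5 tested copies was -0.004 in LMNA, -0.22 in LMNB1 and 0.29 in LMNB2, where all tested features had medians of -0.05, -0.05 and -0.04. In LMNB1 the 5 values ran from -0.33 to -0.18, and in LMNB2 from -0.09 to 0.50 with 4 of them above 0. Without GFP replicate 3 the median became 0.47 (LMNA), 0.30 (LMNB1) and 0.56 (LMNB2), so the sign in LMNA and LMNB1 turned with that library.

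RF00100-chr17 had the lowest p of the copies. Its log2 fold change in LMNB2 against GFP was 0.50 ± 0.18 (SE), with an unadjusted p of 0.0123 and an adjusted p of 0.137 (edgeR), so it was not called. The LMNB2 libraries, at 1.80 to 1.91 CPM, lay above the GFP libraries, at 0.97 to 1.57. It was the only one of the 5 copies whose 3 LMNB2 libraries did not overlap GFP, which was also so for 22.3% of all tested features. None of the 5 was free of overlap with GFP in LMNA or LMNB1, where 9.5% and 10.1% of all tested features were. In LMNA and LMNB1 the same copy had log2 fold changes of 0.07 ± 0.18 and -0.18 ± 0.18.

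Among the lamins, RF00100-chr17 was 0.68 ± 0.18 (SE, log2) higher in LMNB2 than in LMNB1, with an adjusted p of 0.0577 (edgeR), and 0.44 ± 0.18 higher than in LMNA, with an adjusted p of 0.230 (edgeR). Neither passed. These contrasts called 2.19% and 2.01% of all tested features. LMNB1 against LMNA called 0.0118% and none of the copies, whose lowest adjusted p was 0.888 (edgeR). In the 3 contrasts between lamins 0, 1 and 1 copies had an unadjusted p under 0.05 (LMNB1 against LMNA, LMNB2 against LMNA, LMNB2 against LMNB1), and DESeq2 was run only against GFP and jointly. The joint test of the 4 groups gave RF00100-chr17 an adjusted p of 0.148 (edgeR). Without GFP replicate 3 that p was 0.0198 (edgeR) and the copy was called, in a fit that then called 9.02% of 36091 features; its log2 fold change in LMNB2 was 0.38 there. Over all alternatives the joint adjusted p ran from 0.0198 to 0.427 (edgeR and DESeq2).

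Summed over the 56 copies, CPM on unscaled total counts were 1.30, 1.69 and 2.78 (GFP), 2.01, 2.11 and 1.72 (LMNA), 1.70, 2.02 and 1.86 (LMNB1) and 3.28, 2.74 and 2.67 (LMNB2). GFP replicate 3 fell within the LMNB2 range, so LMNB2 and GFP overlapped. Scaling by total counts in place of TMM moved the median of all features in LMNB2 by 0.23 (log2), which bears on this sum.

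**Figure D2:**
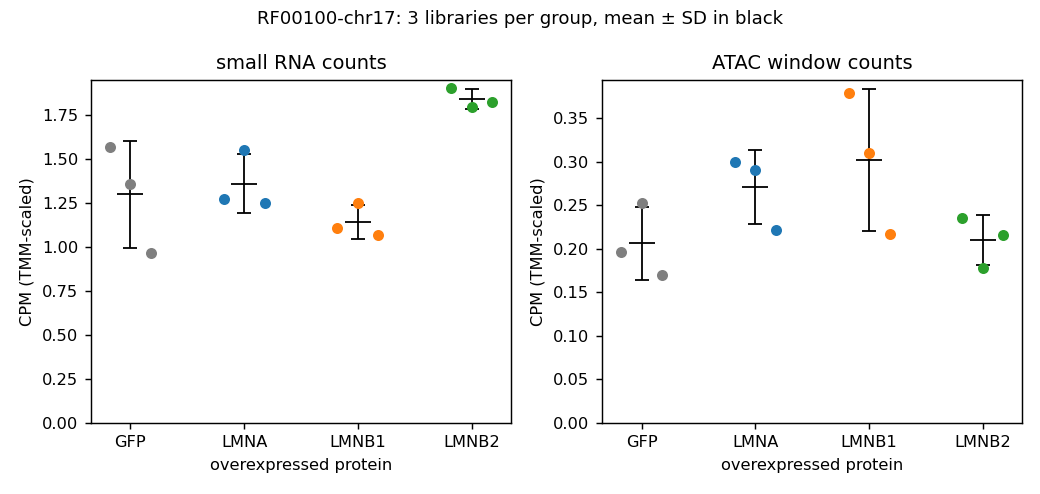
CPM (TMM-scaled) of RF00100-chr17 by group in the small RNA libraries (left) and in its ATAC window (right); coloured points are the 3 libraries of a group and black marks are mean ± SD. LMNB2 is the highest group in small RNA (1.84) but level with GFP in ATAC (0.21 in both), where LMNB1 has the highest mean and the widest spread.

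In chromatin, nearly every copy had ATAC counts, at low levels. The window on a copy is wider than its interval on each side, and 55 of the 56 windows averaged at least 1 count per library. An average of 10 was reached by 23, and 38 had a count in every library. The exception was RN7SKP298 on chromosome 3, with 2 counts over the 12 libraries. Its 50 kb flanks held 5.65 counts per kb and its 500 bp flanks 7.83. The window stood at 0.0616 and 0.0444 of these, and the reason was not tested. The copies thus had shares of 98.2%, 41.1% and 67.9% for an average of 1, an average of 10 and every library. Nuclear features of at most 500 bp that are not lncRNA had 98.6%, 36.5% and 59.0%. All nuclear features had 99.6%, 89.1% and 93.1%, so having ATAC counts does not mark out the copies. As 70.6% of ATAC counts between 1 and 20 were even numbers, both ends of a fragment may have been counted, and counting error is then larger than the count alone implies.

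Set against the 50 kb flanks on either side, most windows were no richer in ATAC counts than their surroundings. The ratio of counts per kb in the window to counts per kb in the flanks had a median of 0.882 over the 56 copies (range 0.0616 to 5.41). It was above 1 for 23 copies, at least 2 for 6 and at least 3 for 3, whereas the window on RN7SK had a ratio of 110. Those counts were 41.1%, 10.7% and 5.36% of the copies. Nuclear features of at most 500 bp that are not lncRNA had shares of 30.0%, 10.4% and 6.73%. All nuclear features, which are longer (median 4226 bp), had shares of 44.8%, 19.7% and 13.8% and a median ratio of 0.920. The 24 copies in protein-coding genes had a median ratio of 0.712 and the 32 others 1.08. By library, the median over the copies was 0.783 ± 0.131 (GFP; SD, n = 3), 0.822 ± 0.068 (LMNA), 0.833 ± 0.19 (LMNB1) and 0.937 ± 0.110 (LMNB2), with differences of the size of these SDs.

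**Figure D3:**
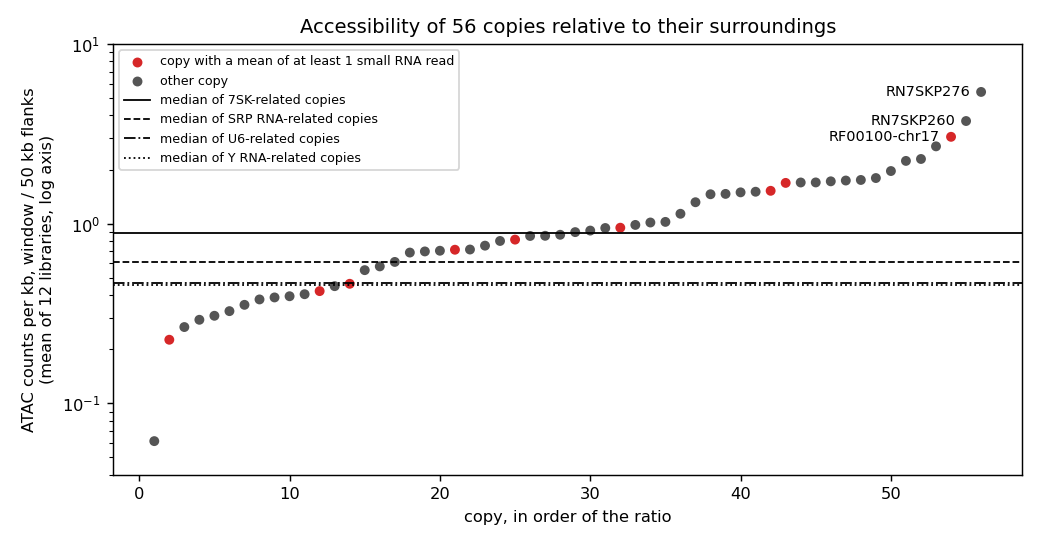
Ratio of ATAC counts per kb in the window of each of the 56 copies to that in its 50 kb flanks (vertical log axis, mean of 12 libraries), in order of the ratio; red points average at least 1 small RNA read per library, and lines are medians of the families of dispersed copies. The 3 copies labelled by name lie above 3, and the median of the 7SK-related copies (0.882) lies above those of the SRP RNA (0.615), U6 (0.469) and Y RNA (0.453) copies.

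RN7SKP276 (chr1:229410585-229410792, minus strand) had the highest window level, 208 counts per kb and 5.41 times its 50 kb flanks. Its counts were 51, 60 and 65 (GFP), 74, 74 and 137 (LMNA), 107, 134 and 89 (LMNB1) and 138, 116 and 100 (LMNB2). In CPM the ranges were 0.322 to 0.352 (GFP), 0.370 to 0.482 (LMNA), 0.350 to 0.451 (LMNB1) and 0.400 to 0.492 (LMNB2). LMNA and LMNB2 lay above GFP. Of all windows, 9.55% and 10.3% were free of overlap with GFP in these groups, in either direction. The 500 bp flanks of this copy were richer still, at 475 counts per kb, so its own window was at 0.439 of its close neighbourhood. A single small RNA read fell on it in the 12 libraries.

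RN7SKP260 (chr2:206260004-206260263, minus strand), inside CMKLR2-AS, was the only copy whose window exceeded both kinds of flank by more than 3 times: it held 146 counts per kb, 3.73 times the 50 kb flanks and 3.83 times the 500 bp flanks. Against the 500 bp flanks alone, 2 windows with fewer counts had higher ratios, URS00006BFFB5 on chromosome 2 (10.1) and the RF00100 interval that starts at 120228021 on chromosome 1 (4.06), but they stood at 0.897 and 0.867 of their 50 kb flanks. The counts of RN7SKP260 were 42, 50 and 61 (GFP), 55, 73 and 91 (LMNA), 86, 95 and 64 (LMNB1) and 87, 100 and 89 (LMNB2). In CPM the ranges were 0.265 to 0.315 (GFP), 0.275 to 0.415 (LMNA), 0.252 to 0.336 (LMNB1) and 0.310 to 0.356 (LMNB2), and each lamin group overlapped GFP. Over the 12 libraries the ratio to the 50 kb flanks ran from 3.04 to 5.11. It too had a single small RNA read.

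RF00100-chr17, the copy with most small RNA reads, also had one of the 3 most accessible windows, at 106 counts per kb, 3.04 times the 50 kb flanks and 1.80 times the 500 bp flanks. Its window counts were 31, 43 and 33 (GFP), 60, 51 and 63 (LMNA), 97, 92 and 55 (LMNB1) and 66, 51 and 54 (LMNB2). In CPM it averaged 0.206 ± 0.042 (GFP; SD, n = 3), 0.271 ± 0.043 (LMNA), 0.302 ± 0.082 (LMNB1) and 0.210 ± 0.029 (LMNB2), and each lamin group overlapped GFP.

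The next windows by counts per kb were those on URS000069E512 (chr22:50480275-50480595, 76.3), RN7SKP272 (chr1:89987622-89987969, 66.9), RN7SKP11 (chr12:96427154-96427511, 39.6), URS00006C9218 (33.0) and RN7SKP165 (32.7). Of these, RN7SKP272 and RN7SKP11 exceeded their 50 kb flanks, by 1.70 and 1.32 times, and neither had a small RNA read. URS000069E512 lay 948 bp from ADM2, which encodes a peptide hormone, in a region of 124.7 counts per kb, and its window was at 0.612 of that. RN7SKP272 had 30, 32 and 31 counts (GFP), 32, 31 and 32 (LMNA), 46, 57 and 61 (LMNB1) and 35, 50 and 43 (LMNB2), with log2 fold changes of -0.26, 0.18 and -0.18 against GFP.

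**Figure D4:**
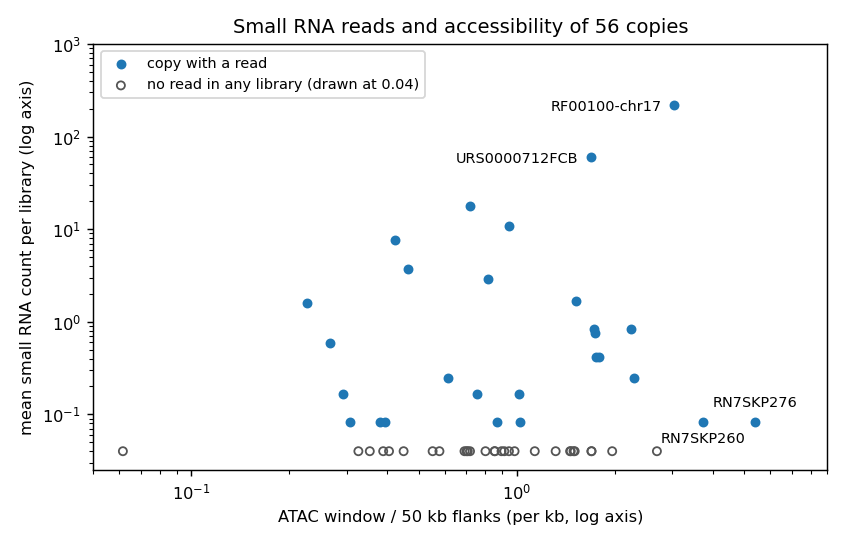
Mean small RNA count per library (vertical log axis) against the ratio of ATAC counts per kb in the window to the 50 kb flanks (horizontal log axis) for the 56 copies; open circles along the bottom are the 29 copies without a read. Among the 3 copies with a ratio of at least 3, RF00100-chr17 averages 217.58 reads and the other two have 1 read each.

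Across the 56 copies, the small RNA mean and the window-to-flank ratio had a Spearman correlation of 0.123, given as a description, since the copies share libraries and many counts are near 0. The Spearman correlation between window level and 50 kb flank level was 0.549. The 9 copies with an average of at least 1 read had a median ratio of 0.815 and the 47 others 0.897. URS0000712FCB, the second copy by reads, had 0 to 12 ATAC counts per library.

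For the ATAC comparisons, 35 copies passed the filter and were tested among 163786 windows. None was called in LMNA, LMNB1 or LMNB2 against GFP or in the joint test, where 0.000611%, 0.00305%, 0.00244% and 0.0421% of all windows were called. The lowest adjusted p of a copy was 0.910, 0.978, 0.860 and 0.669 (edgeR) in that order. At an unadjusted p under 0.05 the copies numbered 1, 2, 2 and 1. DESeq2 gave an adjusted p to 2 of the 35 copies in LMNA, where it called 0, and to none in the other comparisons, so it adds no count there. Among the lamins none of the copies was called either, with 0.223% of windows called for LMNB1 against LMNA and 0.00305% for each LMNB2 contrast; 1, 2 and 1 copies had an unadjusted p under 0.05 in LMNB1 against LMNA, LMNB2 against LMNA and LMNB2 against LMNB1.

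The median log2 fold change of the 35 tested windows was 0.11 in LMNA, 0.14 in LMNB1 and 0.09 in LMNB2, with 21, 22 and 21 of the 35 above 0, and the median of all windows lay within 0.01 of 0 in each. Some windows passed the filter through lamin libraries alone, among them URS0000674542 and URS00006BFFB5. How many did so was not counted. The values in this paragraph therefore describe windows partly selected where lamin counts were high, and are no measure of a rise. Without LMNA replicate 2 the LMNA median was 0.0027, without LMNB1 replicate 2 the LMNB1 median was 0.0052, and without GFP replicate 1 the LMNB2 median was -0.0012. By library, the median log2 level of the copies relative to their GFP mean was -0.103, 0.064 and 0.087 (GFP), -0.015, 0.278 and 0.137 (LMNA), -0.020, 0.201 and 0.086 (LMNB1) and 0.203, 0.125 and 0.241 (LMNB2). The 3 LMNB2 libraries lay above the 3 GFP libraries, and LMNA and LMNB1 overlapped GFP. The SD between replicates of a group was 0.109. Windows whose 3 lamin libraries did not overlap the 3 GFP libraries numbered 4 of 35 in LMNA (2 above, 2 below), 4 in LMNB1 (2 above, 2 below) and 6 in LMNB2 (5 above, 1 below). The shares of all windows were 9.55%, 8.46% and 10.3%.

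**Figure D5:**
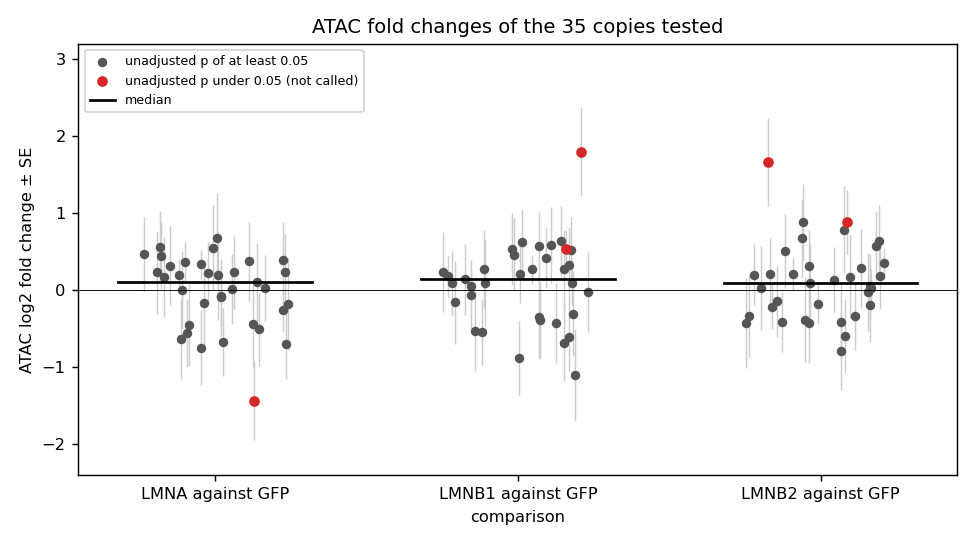
ATAC log2 fold changes against GFP (vertical axis, ± SE in grey) of the 35 copies tested, by lamin; points are copies, spread sideways for legibility, black lines are medians, and red marks an unadjusted p under 0.05. Medians lie at 0.11, 0.14 and 0.09, and no copy was called.

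URS0000674542 (chr1:63238918-63239152, plus strand), inside LINC00466, had the lowest p in LMNB1, in LMNB2 and in the joint test. Its counts were 0, 4 and 1 (GFP), 2, 7 and 4 (LMNA), 17, 16 and 11 (LMNB1) and 8, 19 and 13 (LMNB2). All 6 LMNB1 and LMNB2 libraries had higher counts than the 6 others; in CPM they still lay above every GFP library, but the lowest LMNB2 library was below the highest LMNA one. Against GFP it had log2 fold changes of 1.80 ± 0.58 (SE; adjusted p = 0.978, edgeR) in LMNB1 and 1.67 ± 0.58 (adjusted p = 0.860, edgeR) in LMNB2. The counts were few, and no small RNA read fell on this copy. It passed the filter on low counts only through LMNB1 and LMNB2 libraries, the groups where it was high. Its low p is therefore not separate from that selection. Its 50 kb flanks held 790 to 1057 counts in GFP, 1213 to 1407 in LMNB1 and 1143 to 1591 in LMNB2 libraries before scaling for depth.

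RF00100-chr11 (chr11:120365641-120365988, plus strand), inside ARHGEF12, had 7, 18 and 12 counts (GFP), 4, 2 and 8 (LMNA), 8, 12 and 8 (LMNB1) and 6, 21 and 9 (LMNB2). Its log2 fold change in LMNA was -1.44 ± 0.51 (SE; unadjusted p = 0.00879, adjusted p = 0.910, edgeR). The LMNA and GFP libraries did not overlap in CPM, but they did in counts (8 and 7 at the nearest). RN7SKP165 had 10, 14 and 5 counts in GFP and 31, 34 and 26 in LMNB2, a log2 fold change of 0.89 ± 0.42 (adjusted p = 0.869, edgeR). RF00100-chr17 had 0.54 ± 0.25 in LMNB1 (adjusted p = 0.978, edgeR), and RN7SKP276 0.35 in LMNB2 (adjusted p = 0.885, edgeR).

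ATAC counts summed over the 56 windows, as CPM of the counts outside the mitochondrial chromosome, were 4.87, 5.14 and 5.80 (GFP), 5.45, 5.63 and 5.38 (LMNA), 5.08, 5.73 and 5.63 (LMNB1) and 4.67, 4.94 and 4.49 (LMNB2). GFP overlapped every lamin group. LMNB2 replicates 3 and 1 were the lowest of the 12, while LMNB2 replicate 2 lay above the lowest GFP library. The LMNB2 libraries also had the lowest mitochondrial share, and the part of that share in the result was not tested. The mean of this sum, on unscaled totals, was thus lower in LMNB2 than in GFP, whereas the median level of the 35 tested copies, on TMM-scaled library sizes, was higher in LMNB2.

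Other families of dispersed Pol III copies gave a scale for these values. At least 1 small RNA read on average was found on 16.1% of the 7SK-related copies, 12.02% of 1007 U6-related, 52.1% of 867 Y RNA-related and 0.640% of 7341 SRP RNA-related copies. A window-to-flank ratio above 1 was found for 41.1% of the 7SK-related copies, 14.4% of U6, 15.8% of Y RNA and 24.2% of SRP RNA copies. It was found for 30.0% of all nuclear features of at most 500 bp that are not lncRNA, and for 44.8% of all nuclear features. The 7SK-related copies were longer than those of the other families (median 323.5 bp, against 155, 152 and 198 bp), which fixes a wider window. No test of the difference was made. Another 17 features carry names of Pol III genes with upstream promoters (RN7SK, RNU6 genes, RNU6ATAC, RMRP, RPPH1 and the RNY genes). They were chosen by name, and whether each has its own promoter was not checked. Intervals named RNU6-1 alone had ATAC SEs (log2) of 0.41 to 0.50 in LMNA against GFP, where RN7SK had 0.087. All 17 were tested in both assays, and none was called by edgeR against GFP or in the joint test. At an unadjusted p under 0.05 they numbered 0, 2, 2 and 1 in small RNA and 2, 0, 3 and 4 in ATAC for LMNA, LMNB1, LMNB2 and the joint test (edgeR). DESeq2 called 0 of them in small RNA and 1 in ATAC, the RNU6-1 or RNU6-9 interval that starts at 893459 on chromosome 19, in the joint test (adjusted p = 0.0381, against 0.274 in edgeR).

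Reads that match several copies could not be separated from reads of RN7SK here, because how multiply mapping reads were treated is not given in the sources used here. The totals are sums over features that overlap each other, so they exceed the number of reads.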

How the data were processed

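The authors deposited whole-number counts for both assays, 1 table each, with a value per library for every annotated feature (small RNA) or for a window on it and its flanks (ATAC). The build is GRCh38, per the submitters' processing notes. The aligner, counter and treatment of duplicates or multiply mapped reads are not given in the sources used here. Strand was not used in counting, as seen in 4101 pairs of a feature lying inside a longer one on the opposite strand. The inner feature averaged at least 20 reads, and a feature can enter several pairs. In 4101 of these pairs the longer feature had at least as many reads. Positions are printed counted from 1.

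For each assay, 1 model of all 12 libraries was fitted to the counts (edgeR 4.0.16 under R 4.3.3, filterByExpr, TMM, robust quasi-likelihood, prior count 2), with Benjamini-Hochberg adjustment over all tested features and a call at an adjusted p under 0.05. The fit was tested on simulated data. DESeq2 1.42.0 was an alternative, beside other scalings, filters, a replicate block and leaving out each library. Contrasts between lamins and the alternatives for single named copies were added after seeing the data. Biological coefficients of variation were 0.227 (small RNA) and 0.085 (ATAC).

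The members and lists were chosen with earlier results of these data known. Copies were named by rule: the 8 highest in small RNA CPM, the 8 highest in ATAC CPM per kb, the 2 with the lowest p in each comparison and the longest; RN7SKP60, RN7SKP298, URS00006BFFB5 and the chromosome 1 RF00100 interval at 120228021 were named after their values were seen. Groups came from sample titles. No p was computed over the members together.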

Additional observations from a re-analysis of the deposited data

How the results depend on the processing

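No copy was called in any lamin against GFP comparison of either assay under the alternatives run. These were other scalings, filters, DESeq2, fewer libraries in the fit, a fit without lncRNA features, the replicate block and leaving out each library. A stricter threshold was also applied, but with 0 copies called in the main fit it could only give 0 again. In the joint small RNA test 1 copy, RF00100-chr17, was called without GFP replicate 3, and 0 were called in the others (range 0 to 1 when leaving out a library). The median small RNA log2 fold change when a library was left out spanned -0.20 to 0.47 (LMNA), -0.44 to 0.30 (LMNB1) and 0.02 to 0.56 (LMNB2). In LMNA and LMNB1 the highest values, 0.47 and 0.30, were those without GFP replicate 3. The ATAC median in LMNB1 was 0.32 with total counts only, a scaling that moved the median of all windows by 0.19, and ran from 0.01 to 0.18 when a library was left out, being lowest at 0.00517 without LMNB1 replicate 2. The same ranges were 0.0027 to 0.18 in LMNA and -0.0012 to 0.17 in LMNB2, lowest without LMNA replicate 2 and GFP replicate 1. The cause was not tested. The number of copies with small RNA reads, 9 at an average of at least 1, was 4 at an average of at least 10, 5 with a read in every library, 5 by filterByExpr and 4 among the 23 that overlap no other feature. For ATAC the 55 copies became 23 at an average of at least 10, 35 by filterByExpr and 22 among those 23. RF00100-chr17 in LMNB2 against GFP had a log2 fold change of 0.38 to 0.81 and an adjusted p of 0.0621 to 0.281 (edgeR and DESeq2) over its alternatives. Same-numbered libraries correlated above 0.1 in 3 of 18 pairs in small RNA and 2 of 18 in ATAC, with highest values of 0.34 and 0.23. Their medians were 0.031 and 0.0093, against -0.016 and -0.00082 for libraries with different numbers. Correlations this weak do not settle whether equal numbers mark a shared day or culture, which the labels do not state. With the replicate number as a block 0 copies were called, and the medians were -0.007, -0.20 and 0.29 in small RNA and 0.12, 0.12 and 0.08 in ATAC for LMNA, LMNB1 and LMNB2. No ATAC call count could be had from DESeq2 in LMNB1, LMNB2 or the joint test, where its filter gave no copy an adjusted p. Only 5 copies had enough small RNA reads to be tested, so depth limits which copies can be compared.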
